A study of Drosophila melanogaster with 3 samples.

Results

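The genes described here encode 10 *Drosophila* proteins that bind or carry iron and other metals. They were chosen by gene name, and each was found as 1 entry among the 15185 gene entries of the deposited expression table. They are the ferritin chains *Fer1HCH* and *Fer2LCH*, the transferrins *Tsf1*, *Tsf2* and *Tsf3*, the metallothioneins *MtnA*, *MtnB*, *MtnC* and *MtnD*, and the metal transporter gene *Mvl*. RNA-seq was carried out on whole male 3rd instar larvae of 3 genotypes raised on cornmeal food, with 1 library for each. The wild type was the Canton S strain. The *mxcmbn1* larvae carried a recessive lethal allele of the X-linked gene *mxc*, which causes tumours of the lymph gland, the larval blood-forming organ, and they came from a *w1 mxcmbn1* stock after its *mxc+* duplication had been removed. The *mxcG43* larvae carried a hypomorphic allele without a tumour phenotype. Each mutant is 1 stock, so allele and genetic background, the *white* allele *w1* included, cannot be told apart, and how many larvae were pooled is not given in the sources used here. Since each genotype has a single library, differences carry no check by replicates, and p-values were not computed.

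Iron is needed for respiration and DNA synthesis, and free iron is toxic, so cells store it in ferritin and carry it in the haemolymph on transferrin. Insect ferritin is a secreted shell built from heavy chains, which oxidise iron, and light chains. Metallothioneins are very short, cysteine-rich proteins that hold copper, zinc and cadmium, and in flies their genes are switched on by metals through the transcription factor MTF-1, strongly in the gut. Mvl belongs to the NRAMP family, whose proteins import iron and manganese into the cytoplasm.

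Levels are in FPKM, fragments scaled to the length of the transcript and the size of the library, so levels of different genes can be set side by side. This is rougher for the short metallothionein transcripts, where the scaling depends strongly on the transcript assumed. With annotated transcripts of 329 to 700 bases, the wild-type level of *MtnA* would stand for 236 to 904 reads. Counting intervals do not cover this. Depth was compared through entries with few reads, whose values in different libraries differ by simple whole-number ratios. By this comparison, and from an estimate of 11300000 mapped fragments in wild type, the *mxcG43* library was 0.970 times and the *mxcmbn1* library 1.36 times as deep as wild type. The same steps gave the whole numbers of reads behind 7 of the 10 genes, all but the ferritins and *Mvl*, which have many transcripts. The 95% Clopper-Pearson intervals beside ratios come from these reads and cover counting error in the libraries compared, not differences between larvae. The mutated gene itself, *mxc*, had an FPKM of 1.96 in wild type, 1.94 in *mxcG43* and 3.56 in *mxcmbn1*, so its mRNA level does not check the labels.

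Against wild type, 3 of the 10 genes were more than 2 times higher in *mxcG43*, all of them metallothioneins, and 2 were more than 2 times higher in *mxcmbn1*, *Tsf1* and *MtnA*. None was below 0.5 times wild type in either mutant. Among all entries that reached an FPKM of 1 in either library, 6.42% were above 2 times and 6.8% below 0.5 times wild type in *mxcG43*. In *mxcmbn1* these shares were 15.5% and 25.8%, so 2 of 10 is near the background there, while 3 of 10 in *mxcG43* is above it. The 3 belong to a single family, and the 10 genes were chosen with earlier results of these data known. The counts therefore describe the group and are not a test of it. All 10 genes were above the wild-type level in *mxcG43*, where 45.6% of all entries were above it, and their median log2 ratio was 0.38 against -0.05 over all entries. In *mxcmbn1*, 6 of the 10 were above wild type, beside 47.8% of all entries, and the median log2 ratio was 0.11 against -0.02 over all entries. When the ratios were divided by the median ratio of all entries, that number became 5, because *Fer2LCH* moved from 1.04 to 0.972 times.

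**Figure D1:**
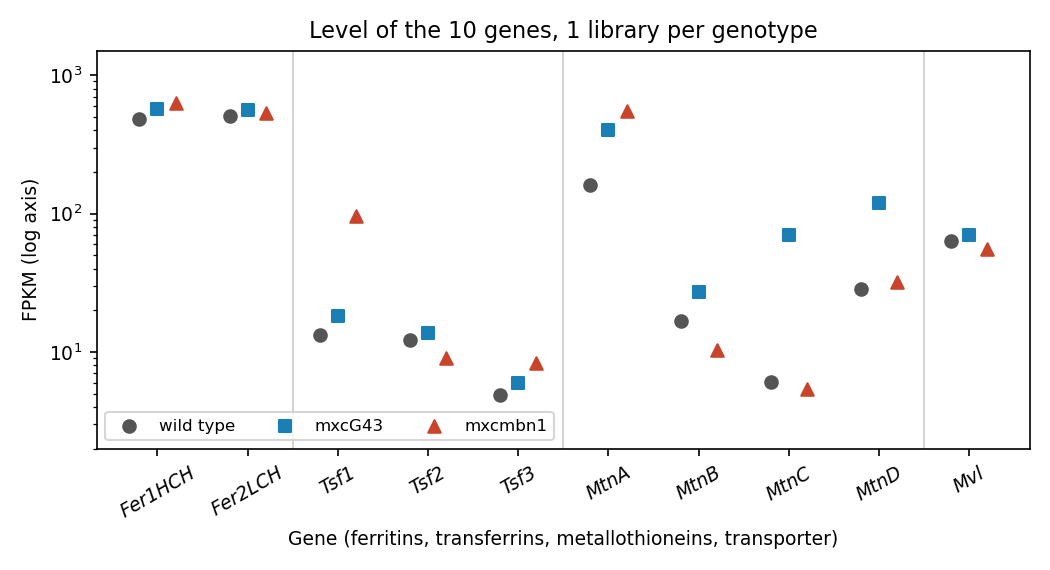
FPKM (log axis) of each of the 10 genes in the wild-type, mxcG43 and mxcmbn1 libraries, 1 point per library. The ferritins run from 484 to 625 over the libraries, Tsf1 stands out in mxcmbn1 at 95.5, and MtnC and MtnD stand out in mxcG43 at 70.5 and 119.

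In wild-type larvae the ferritin genes had the highest levels of the group, followed by *MtnA*, *Mvl*, *MtnD*, *MtnB*, *Tsf1*, *Tsf2*, *MtnC* and *Tsf3*. Several neighbours in this order had overlapping counting intervals, which do not settle their order and are not a test of a difference. *MtnD*, at 28.6 FPKM with a 95% Poisson interval of 18.5 to 42.2, overlaps *MtnB*, at 16.7 with an interval of 10.1 to 26.1, which in turn overlaps *Tsf1*. The level of *Tsf1*, 13.2 FPKM with an interval of 11.7 to 14.9, overlaps that of *Tsf2*, 12.2 with an interval of 11.0 to 13.6. *MtnC*, at 6.10, rested on 5 reads, and its interval of 1.98 to 14.2 takes in *Tsf1*, *Tsf2* and *Tsf3*.

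The ferritin genes differed little between the genotypes. *Fer1HCH* (XLOC_012447) encodes the heavy chain and lies on 3R (BDGP5 coordinates, 26211295 to 26216306 for the joint locus of both chains). Its FPKM was 484 in wild type, 566 in *mxcG43* and 625 in *mxcmbn1*. *Fer2LCH* (XLOC_010663), which encodes the light chain, had an FPKM of 511, 562 and 532 in the same order. These levels ranked 287 and 272 among all 15185 entries in wild type, and both genes stayed among the 300 highest in all 3 libraries. The ratios to wild type were 1.17 and 1.10 in *mxcG43* and 1.29 and 1.04 in *mxcmbn1*, all well inside the 2-fold limits. The heavy-chain level was 0.947 times the light-chain level in wild type, 1.01 times in *mxcG43* and 1.18 times in *mxcmbn1*, so the chains stayed close to equal. Both chains together had a summed FPKM of 994, 1128 and 1157. In the BDGP6 annotation the genes point away from each other and overlap by 375 bases at their starts. The libraries kept strand, but the methods name only default settings for alignment and quantification, so it is not known whether reads in that overlap were assigned by strand. Whole reads were not recovered for them. With the annotated transcripts of 981 to 1677 bases, the level of *Fer1HCH* in wild type would stand for 4250 to 8050 reads, so counting error is small here.

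*Tsf1* (XLOC_013761) encodes the main transferrin of the haemolymph, a protein of 641 residues in the annotation, and lies on X from 18281965 to 18284377. Its FPKM stood at 13.2 in wild type, 18.2 in *mxcG43* and 95.5 in *mxcmbn1*. The reads behind these values numbered 269, 360 and 2637. The *mxcmbn1* library is far above the others, at 7.23 times wild type (95% interval 6.38 to 8.23) and 5.24 times *mxcG43* (4.69 to 5.87). In *mxcG43* the level was 1.38 times wild type (1.18 to 1.62). By its ratio of *mxcmbn1* to wild type, *Tsf1* ranked 487 from the top among 11982 entries. Its rank by level was 5238 in wild type and 997 in *mxcmbn1*.

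The other transferrins differed less, and not in the same direction. *Tsf2* (XLOC_008295), the gene for a membrane-bound transferrin known for its place in septate junctions, lies on 3L from 12523536 to 12526824. Its FPKM was 12.2, 13.7 and 8.98 in wild type, *mxcG43* and *mxcmbn1*, with 371, 403 and 369 reads. The ratio to wild type was 1.12 in *mxcG43* (0.971 to 1.29) and 0.734 in *mxcmbn1* (0.633 to 0.850). *Tsf3* (XLOC_003673), a further secreted transferrin, lies on 2R from 12110719 to 12121591, in a stretch that 2 other entries share. Its FPKM was 4.89, 5.97 and 8.36, with 119, 141 and 276 reads. The ratio to wild type was 1.22 in *mxcG43* (0.951 to 1.57) and 1.71 in *mxcmbn1* (1.38 to 2.14). *Tsf1* made up 43.5% of the summed transferrin level in wild type, 48.1% in *mxcG43* and 84.6% in *mxcmbn1*.

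**Figure D2:**
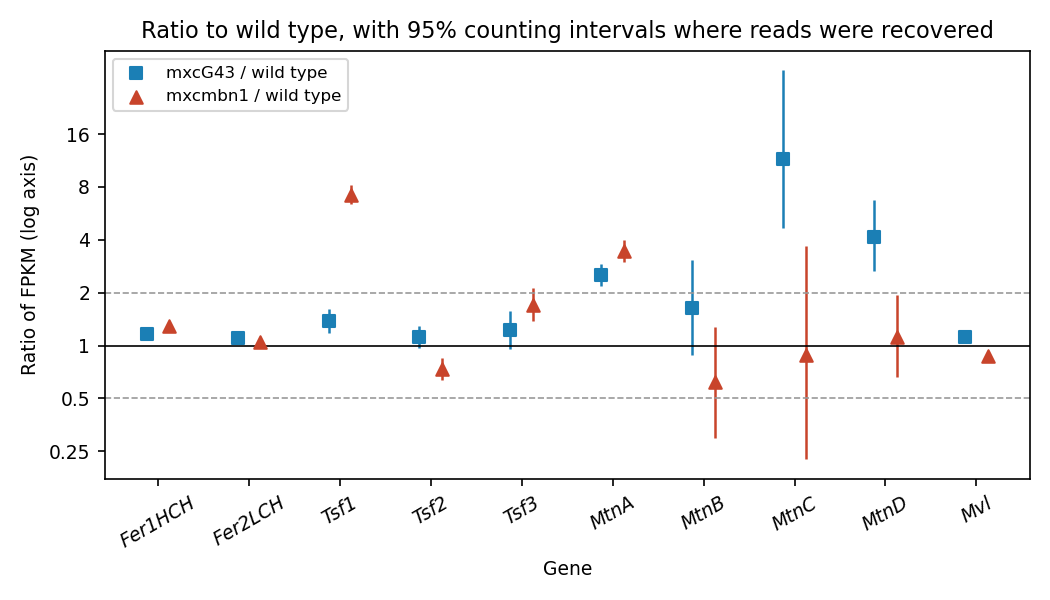
Ratio of FPKM to wild type (log axis) for the 10 genes in mxcG43 and mxcmbn1, with 95% counting intervals as vertical lines for the 7 genes whose reads were recovered, and dashed lines at 2 and 0.5 times. Tsf1 in mxcmbn1 and MtnA, MtnC and MtnD in mxcG43 have intervals wholly above 2, as has MtnA in mxcmbn1.

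Blood cells and fat body also differ between these libraries. Of 8 markers of haemocytes, all were found in every library, and 7 stood above 2 times wild type in *mxcmbn1*, beside 1 of 7 in *mxcG43* (*nimC1*, at 3.20 times), with a summed FPKM of 174 in wild type, 169 in *mxcG43* and 1208 in *mxcmbn1*. The exception, *crq*, was at 1.57 times. Among all entries, 15.5% were above 2 times wild type in *mxcmbn1* and 6.42% in *mxcG43*. Below 0.5 times, the share in *mxcmbn1* was 25.8%. The 3 lamellocyte markers summed to 21.7, 10.5 and 51.7, with *PPO3* and *ItgaPS4* above 2 times wild type in *mxcmbn1*, and 2 crystal cell markers to 78.4, 37.0 and 214. Nearly all of the latter sum was *PPO1*, and *lz*, the other crystal cell marker, was lowest in *mxcmbn1*, at an FPKM of 0.732, 0.472 and 0.225. All 6 fat body genes, which encode larval serum proteins and related proteins, were below 0.5 times wild type in *mxcmbn1*, and their summed FPKM was 26979 in wild type, 20180 in *mxcG43* and 8807 in *mxcmbn1*. The antimicrobial peptide gene *Drs*, made in the fat body and chosen with its values known, was at 9.77 times wild type in *mxcG43* and 22.4 times in *mxcmbn1*. By qRT-PCR against a *w/Y* control, the paper found *Drs* raised in *mxcmbn1* but detected no similar rise in *mxcG43*. In *mxcmbn1*, where *Tsf1* was high, the blood cell sums and *Drs* were high and the fat body sum was low. In *mxcG43*, where *Tsf1* was at 1.38 times wild type, the haemocyte sum was at 0.972 times. The lamellocyte, crystal cell and fat body sums were lower than in wild type, and *Drs* was high in this library. Of the fat body genes, *Fbp1* went the other way there, at 3.63 times wild type. The lamellocyte sum was mostly *atilla*, at 0.436 times. *PPO3* and *ItgaPS4*, below an FPKM of 1 in wild type and *mxcG43*, were at 2.58 and 1.10 times. *Tsf1* is known to respond to infection, and the part of these values in its level was not tested. In whole larvae, fewer cells of a type and less RNA per cell cannot be told apart. The paper describes the sequenced wild-type and *mxcmbn1* larvae as mature and equal in stage, without their age in days. It also reports that some *mxcmbn1* larvae had not pupated when controls had. The part of larval timing in these values was not tested.

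The metallothionein genes differed from each other in the mutants. *MtnA* (XLOC_011138), the most abundant of them in every library, lies on 3R from 5609487 to 5610093 and encodes a protein of 40 residues. Larvae had an FPKM of 161 in wild type, 404 in *mxcG43* and 554 in *mxcmbn1*, with 254, 620 and 1187 reads. Both mutants are above wild type. The ratio was 2.52 in *mxcG43* (2.17 to 2.92) and 3.45 in *mxcmbn1* (3.01 to 3.96), and *mxcmbn1* was at 1.37 times *mxcG43* (1.24 to 1.51). Its rank by level was 627 in wild type, 301 in *mxcG43* and 255 in *mxcmbn1*.

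*MtnB*, *MtnC* and *MtnD* lie in 1 stretch of 175 kb on 3R, far from *MtnA*, and have proteins of 43 or 44 residues. *MtnC* (XLOC_009981), from 16186030 to 16186356, showed levels of 6.10 FPKM in wild type, 70.5 in *mxcG43* and 5.40 in *mxcmbn1*. The reads were 5, 56 and 6, so *mxcG43* stands alone. The ratio to wild type was 11.6 in *mxcG43*, with an interval of 4.67 to 37.0, and 0.885 in *mxcmbn1*, with an interval of 0.225 to 3.67. At this depth, changes of *MtnC* in *mxcmbn1* inside this last interval were not resolved, while the ratio seen in *mxcG43* lies outside it. By its ratio in *mxcG43*, *MtnC* ranked 188 from the top among 11876 entries.

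*MtnD* (XLOC_009984), from 16360684 to 16361023, showed levels of 28.6 FPKM in wild type, 119 in *mxcG43* and 32.0 in *mxcmbn1*, with 25, 101 and 38 reads. Again only the *mxcG43* library is high, at 4.17 times wild type (2.67 to 6.74), while *mxcmbn1* was at 1.12 times (0.659 to 1.94). *MtnB* (XLOC_011786), from 16328960 to 16329321, had an FPKM of 16.7, 27.2 and 10.4, with 19, 30 and 16 reads. It was highest in *mxcG43*, at 1.63 times wild type (0.887 to 3.06), and lowest in *mxcmbn1*, at 0.621 times (0.299 to 1.28), and both intervals hold 1. Relative to *mxcG43*, the *mxcmbn1* levels of *MtnB*, *MtnC* and *MtnD* were 0.381 (0.194 to 0.722), 0.0766 (0.0270 to 0.178) and 0.269 times (0.180 to 0.394). In that comparison, which shares its libraries with those against wild type, 3 of the 10 genes were below 0.5 times and 1, *Tsf1*, above 2 times. The shares of all entries were 26% and 14.8%. In total 4 of the 10 were above their *mxcG43* level in *mxcmbn1*, as were 48.9% of all entries.

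*MtnE*, a further gene of the same family, is on the list of copper-handling genes and was chosen for description here after its values were seen. It lies on 3R from 16360001 to 16360426, 257 bases before *MtnD*, on the opposite strand, and encodes 41 residues. Its FPKM was 22.9, 113 and 38.8 in wild type, *mxcG43* and *mxcmbn1*, with 37, 177 and 85 reads. The *mxcG43* level was 4.93 times wild type (3.45 to 7.24), close to that of its neighbour *MtnD*, and the *mxcmbn1* level 1.69 times (1.14 to 2.57). *MtnD* was at 1.25 times the level of *MtnE* in wild type, 1.05 times in *mxcG43* and 0.825 times in *mxcmbn1*. *Stat92E*, whose entry lies 381 bases after *MtnD* and which encodes the transcription factor of the JAK/STAT pathway, was at 1.11 times wild type in *mxcG43* and 1.85 times in *mxcmbn1*. It was looked at after its values were seen.

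**Figure D3:**
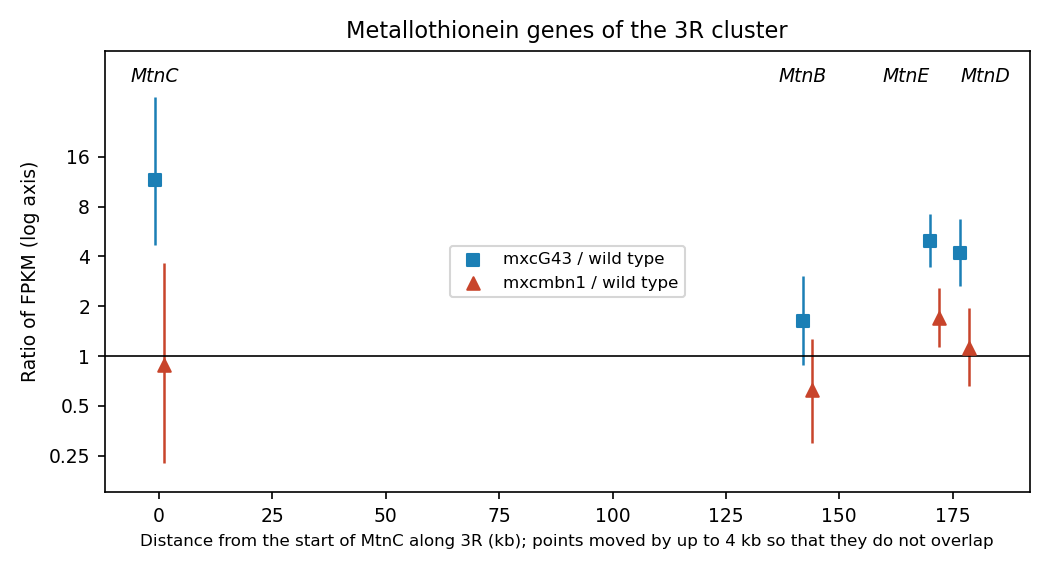
Ratio of FPKM to wild type (log axis) of the clustered metallothionein genes against their distance from the start of MtnC in kb, with 95% counting intervals as vertical lines. The mxcG43 ratios are 11.6, 1.63, 4.93 and 4.17 from MtnC to MtnD, and the mxcmbn1 ratios 0.885, 0.621, 1.69 and 1.12.

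The sum over *MtnA* to *MtnD* was nearly the same in the mutants, but its composition was not. The summed FPKM was 212 in wild type, 621 in *mxcG43* and 601 in *mxcmbn1*, or 2.93 and 2.84 times wild type. This near equality depends on the genes summed. It leaves out *MtnE*, which was at 113 FPKM in *mxcG43* and 38.8 in *mxcmbn1*. *MtnA* made up 75.8% of it in wild type, 65.1% in *mxcG43* and 92.0% in *mxcmbn1*. Without *MtnA*, the sum was 51.4 in wild type, 217 in *mxcG43* and 47.8 in *mxcmbn1*. Of the clustered genes, *MtnB* was 2.74 times as high as *MtnC* in wild type, 0.386 times in *mxcG43* and 1.92 times in *mxcmbn1*. With 5 and 6 reads of *MtnC*, the intervals of these levels overlap in wild type (10.1 to 26.1 against 1.98 to 14.2 FPKM) and in *mxcmbn1* (5.93 to 16.8 against 1.98 to 11.8). These intervals do not settle the order of the genes there, and their difference was not tested.

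**Figure D4:**
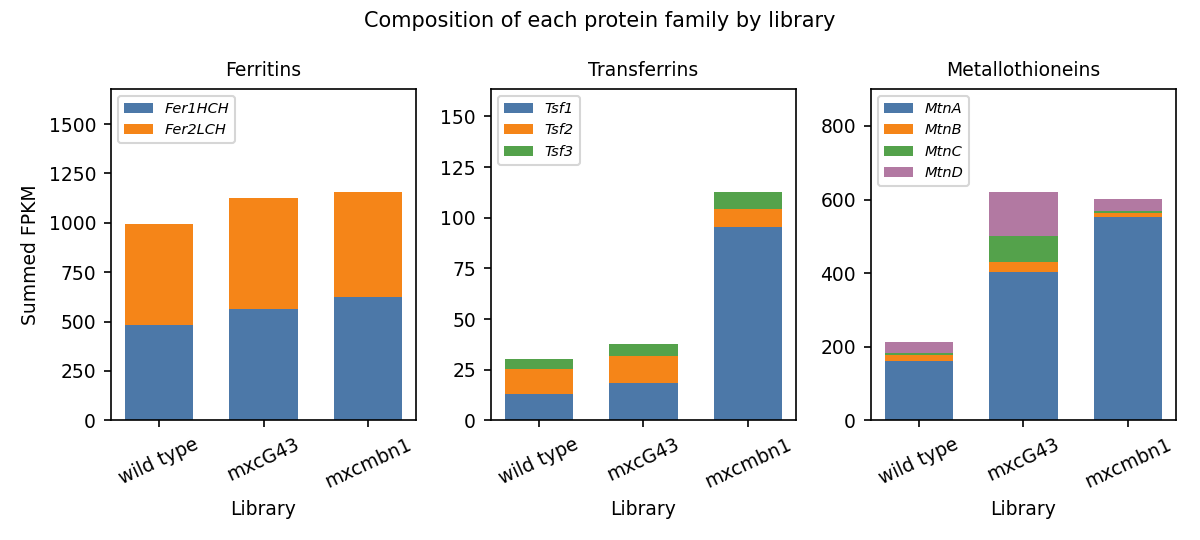
Summed FPKM of the ferritin, transferrin and metallothionein genes (MtnA to MtnD, without MtnE) in each library, with 1 colour per gene and axes that start at 0. The ferritin sum stays between 994 and 1157, the transferrin sum reaches 113 in mxcmbn1 through Tsf1, and the metallothionein sums of the mutants, 621 and 601, differ in the share of MtnA.

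Markers of the midgut, a main site of metallothionein expression, were compared in the same libraries. Of 8 genes, 7 had an FPKM of at least 1. In *mxcG43*, 2 of these, *alphaTry* and *Jon99Ciii*, which encode digestive proteases, stood above 2 times wild type and 1, the maltase gene *Mal-A1*, was below 0.5 times, and the summed FPKM was 7108 in wild type, 11493 in *mxcG43* and 9166 in *mxcmbn1*. In *mxcmbn1*, *alphaTry* was above 2 times and *Mal-A1* below 0.5 times. Of all entries, 6.42% were above 2 times and 6.8% below 0.5 times in *mxcG43*, and 15.5% and 25.8% in *mxcmbn1*. The homeotic gene *lab*, which marks the copper cells of the midgut, had an FPKM of only 0.448, 0.330 and 0.837. The midgut sum was at 1.62 times wild type in *mxcG43*, where the median log2 ratio over the 7 markers was 0.10 and 3 of the 7 were below 1 time. The part of these values in the metallothionein levels was not tested.

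*Mvl* (XLOC_011832) lies on 3R from 16877105 to 16886517 and encodes Malvolio, first known for its role in taste behaviour. Its FPKM was 62.9 in wild type, 70.1 in *mxcG43* and 55.0 in *mxcmbn1*. The 3 levels are close, at 1.11 and 0.875 times wild type. *Mvl* has 6 annotated transcripts, and no whole reads were recovered for it.

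Other genes of metal handling were examined through lists of 53 genes, of which 50 were found. In *mxcG43*, 1 of 50 was above 2 times wild type, namely *MtnE*, and 2 were below 0.5 times, or 2% and 4%. The lower ones were *ZnT33D* and, at 3.09 and 1.44 FPKM in wild type and *mxcG43*, the multicopper oxidase gene *Mco1*, which was named after its values were seen. In *mxcmbn1*, 5 of 49 were above 2 times and 8 below 0.5 times, or 10.2% and 16.3%. All of these shares are under those of all entries in the same comparison.

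Of 7 other iron genes, 2 were above 2 times wild type in *mxcmbn1*. *Irp-1B*, a cytosolic aconitase related to the iron regulatory protein IRP-1A, had an FPKM of 25.1, 45.1 and 60.9 in wild type, *mxcG43* and *mxcmbn1*, and was at 2.43 times wild type in *mxcmbn1* (2.24 to 2.63). *mfrn*, which encodes mitoferrin, the carrier that brings iron into mitochondria, had 5.72, 7.45 and 14.1. *Fer3HCH*, the mitochondrial ferritin, had 5.01, 2.84 and 0.358, with 31, 17 and 3 reads, which puts *mxcmbn1* at 0.0714 times wild type (0.0140 to 0.229). *Zip99C*, known for moving iron into the secretory pathway where ferritin is loaded, had 67.4, 119 and 56.2, highest in *mxcG43*.

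Among 10 genes of heme synthesis and breakdown, 2 were above 2 times and 2 below 0.5 times wild type in *mxcmbn1*. The gene of porphobilinogen deaminase, an early enzyme of the pathway, had an FPKM of 6.96, 11.8 and 23.3. *Coprox*, the coproporphyrinogen oxidase gene, had 19.2, 30.2 and 45.7, at 2.38 times. *Ho*, which encodes the heme oxygenase that frees iron from heme, went the other way, with 112, 162 and 46.3, at 0.412 times. *Uros2*, a gene for uroporphyrinogen III synthase, had 1 read in *mxcmbn1* and an FPKM of 5.53, 6.89 and 0.0850, at 0.0154 times (0.000381 to 0.0898). In iron-sulphur cluster assembly, 1 of 9 genes passed 2 times, the scaffold gene *IscU*, with 59.6, 61.9 and 120, or 2.02 times.

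Of 13 zinc transporter genes, 4 were below 0.5 times wild type in *mxcmbn1* and none was above 2 times, a number of lower genes near the 25.8% of all entries. *ZnT35C* had an FPKM of 14.9, 21.6 and 3.35, *Zip88E* 18.8, 14.3 and 4.42, and *Zip71B* 39.8, 26.5 and 12.5. *ZnT33D* had 7.94, 3.54 and 0.0636. Of 10 copper-handling genes, none was above 2 times wild type in *mxcmbn1* and 1, *Ctr1C*, was below 0.5 times. *MTF-1*, the gene for the metal-responsive activator of the metallothioneins, had 10.6 in wild type, 7.52 in *mxcG43* and 18.7 in *mxcmbn1*. It was lowest in the library in which *MtnC* and *MtnD* were highest, and highest in the library in which *MtnA* was highest. Its part in the metallothionein levels was not tested. *Ctr1B*, a copper importer of the gut, had 45.4, 64.3 and 23.1. *Ctr1C*, a copper importer of the male germline, named after its values were seen, had 39, 38 and 0 reads, which puts *mxcmbn1* at least 17.6-fold lower than wild type if its level is set at a floor of 3 reads. The 95% interval of the ratio, which includes the counting error in wild type, reached up to 0.0732 times.

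Of 8 testis genes, all were below 0.5 times wild type in *mxcmbn1*, beside 25.8% of all entries. Their summed FPKM was 1085 in wild type, 796 in *mxcG43* and 11.5 in *mxcmbn1*, and none was at 0. Their levels move with those of *Fer3HCH*, *Uros2*, *ZnT33D* and *Ctr1C*, and their part in these was not tested.

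**Figure D5:**
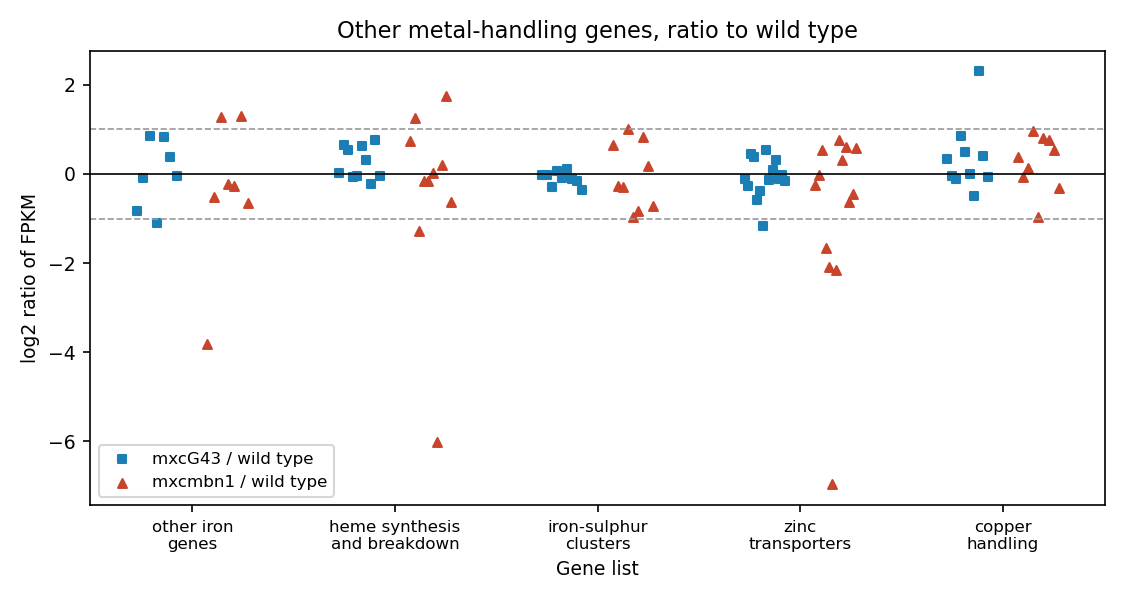
log2 ratio of FPKM to wild type of each listed gene that reached an FPKM of 1 in either library, by list, for mxcG43 and mxcmbn1, with dashed lines at 2 and 0.5 times. Ctr1C is not drawn for mxcmbn1, where it was at 0. The single mxcG43 point above 2 times is MtnE, and the lowest mxcmbn1 points are ZnT33D and Uros2.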

How the data were processed

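Total RNA of whole male 3rd instar larvae was made into strand-specific, single-end libraries of 51-bp reads, 1 per genotype. After quality checks (FastQC 0.11.5) and filtering, the authors mapped reads to BDGP5 (TopHat 2.0.6) and derived FPKM per gene (Cufflinks), with default parameters in both tools, and these FPKM are the deposited values. The gene annotation and the filter are not given in the sources used here.

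Genes were taken by name, and starts, found to count from 0, are printed from 1. Ratios of FPKM were taken without a pseudocount, and 2 and 0.5 times were used as limits for entries that reached an FPKM of 1 in either library. Relative depth came from the commonest ratio among entries under 3 FPKM. Whole reads were searched up to 3000 within a relative tolerance of 1e-05 for genes with at most 3 annotated transcripts. They were kept where the depth they imply lay within 25% of 11300000 fragments in wild type, the median over 620 entries of which 83.2% lay within 2% of it. That estimate assumes fragments of 200 ± 80 bases. For the genes reported it lay between 0.829 and 1.08 times the median. The true number of reads can be a common multiple.

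Gene names, transcripts and protein lengths came from Ensembl release 115 (BDGP6) and RefSeq. The names of *Zip88E*, *Zip89B*, *Uros2*, *ItgaPS4*, *PPO1* and *PPO2* were corrected after the files were read. *Mco3*, *Zip42C.1*, *Zip89B* and *PPO2* were not found under the names searched and were not analysed here. The genes and lists were chosen with earlier results of these data known. Named were all 10 genes and, of the lists, at most 4 genes each past the limits in any comparison that reached an FPKM of 5 in either library. No sequences were used, and the planned count of metal response elements in promoters was not run. Alternatives covered the pseudocount, scaling, the minimum FPKM, the fold and overlapping loci. The steps were tried on simulated Poisson reads with a fixed length per entry, which did not cover genes with several transcripts or overlapping loci. Tools were matplotlib 3.10.9, scipy 1.17.1, pandas 2.3.3 and numpy 2.4.6 under Python 3.11.15.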

Additional observations from a re-analysis of the deposited data

How the results depend on the processing

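The counts of genes above 2 times and below 0.5 times in the 3 comparisons were recomputed with pseudocounts of 0.1 and 1, with ratios divided by the median or the upper-quartile ratio, with no minimum FPKM or one of 5, with folds of 1.5 and 3, and without the 3 genes in loci shared with another entry (*Fer1HCH*, *Fer2LCH* and *Tsf3*). Of these counts, 1 moved by more than 1.5 times: with a fold of 1.5, 1 gene (*MtnB*) was counted as lower in *mxcmbn1* than in wild type, in place of 0. Without the shared loci the median log2 ratio over the genes was -0.18 in place of 0.11 for *mxcmbn1* against wild type, 0.70 in place of 0.38 for *mxcG43* against wild type, and -0.61 in place of -0.21 for *mxcmbn1* against *mxcG43*, since fewer genes enter it. Scaling by the median ratio, which shifts all entries by 0.13 on the log2 scale in *mxcmbn1* against *mxcG43*, gave -0.35 there. Over the ratios of single genes, 3 of 120 values moved by more than their counting interval or 0.1 on the log2 scale, and no gene past a limit changed direction. No paired analysis was possible because each genotype has 1 library, and for the same reason none could be left out. Depth limits *MtnC* most, with 5 and 6 reads in wild type and *mxcmbn1*, and then *MtnB* and *MtnD*.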

Other observations

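*CG43222*, which RefSeq names *MtnF*, a further metallothionein gene outside the lists, was looked at after its values were seen. Its FPKM was 32.6 in wild type, 29.0 in *mxcG43* and 3.63 in *mxcmbn1*, or 0.890 and 0.111 times wild type. Its entry covers 9491 bases of 3R, far more than a metallothionein gene, and which transcripts its level holds was not tested. The entries nearest to the clustered metallothionein genes, also looked at after their values were seen, were not above 2 times wild type in *mxcG43*. *CG4288*, which lies between *MtnB* and *MtnE*, was at 1.44 times wild type, *Dic2*, next to *MtnB*, at 0.851 times, and *CG10881*, next to *MtnC*, at 0.353 times. In *mxcmbn1* the same entries were at 0.716, 0.0109 and 0.0160 times wild type.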
